A study of Mus musculus with 157 samples.

Results

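RNA polymerase II carrying phosphate on serine 5 of the repeated tail of its largest subunit (Ser5p) was compared at promoters between 48 h and 6 h of retinoic acid (RA). The libraries were chosen by antibody and hours as the labels give them, namely replicates 1, 2 and 3 at 48 h and replicates 1, 3 and 4 at 6 h, which are 6 of the 157 samples of the series. No untreated library enters the comparison. All 6 come from E14, a line of mouse embryonic stem cells with a wildtype genotype, grown in serum and leukaemia inhibitory factor (LIF) on a gelatin coat and given 1 µM RA. Whether LIF stayed in the medium during RA is not given in the sources used here. The chromatin was crosslinked, immunoprecipitated and sequenced (ChIP-seq), and the reads within 1 kb on either side of each transcription start site were counted. The series concerns promoter contacts during developmental gene activation, and the comparison asks which promoters gained or lost initiated polymerase between the first hours of RA and the second day. Nothing in the labels says that replicates were separate cultures, so p-values reflect only spread between libraries, which may be technical. The test pools that spread over transcripts, so a p-value need not follow the spread of its own gene. A library is a pool of cells, in which fewer cells with a loaded promoter and less polymerase per cell cannot be told apart.

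Serine 5 is phosphorylated by the kinase of the general factor TFIIH when polymerase starts a transcript, so Ser5p is strongest around start sites. Polymerase often pauses just downstream of the start until a second kinase, P-TEFb, releases it and serine 2 becomes phosphorylated along the gene. In embryonic stem cells many silent developmental genes are bound by Polycomb complexes and still carry some Ser5p at their promoters. RA binds nuclear receptors, among them RARB, and induces its own degrading enzymes, Hox genes and differentiation, while the pluripotency factors around OCT4 and SOX2 are shut down.

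The promoters with the largest changes that have an entry in the RefSeq promoter table of GRCm38.p6 (mm10), 2 that gained and 2 that lost Ser5p, show what lay under the counted windows. Each is the 250 bases before the annotated start, 5′ to 3′ on the gene's strand, at chr11:83064862-83065111 (plus) for Slfn2, chr4:95052223-95052472 (minus) for Jun, chr9:110951295-110951544 (plus) for Lrrc2 and chr9:110946159-110946408 (minus) for Tdgf1. Capitals mark matches, on either strand, to the motifs that were searched.
Slfn2: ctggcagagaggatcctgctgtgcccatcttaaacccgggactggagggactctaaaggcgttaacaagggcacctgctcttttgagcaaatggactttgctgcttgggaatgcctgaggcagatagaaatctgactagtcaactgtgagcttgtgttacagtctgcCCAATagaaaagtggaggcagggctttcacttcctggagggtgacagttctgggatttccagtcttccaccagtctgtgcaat
Jun: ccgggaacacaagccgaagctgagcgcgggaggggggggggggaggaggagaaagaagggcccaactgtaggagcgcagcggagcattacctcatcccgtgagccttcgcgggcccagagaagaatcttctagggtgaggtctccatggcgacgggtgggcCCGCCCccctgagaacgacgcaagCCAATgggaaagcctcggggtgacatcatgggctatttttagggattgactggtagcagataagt
Lrrc2: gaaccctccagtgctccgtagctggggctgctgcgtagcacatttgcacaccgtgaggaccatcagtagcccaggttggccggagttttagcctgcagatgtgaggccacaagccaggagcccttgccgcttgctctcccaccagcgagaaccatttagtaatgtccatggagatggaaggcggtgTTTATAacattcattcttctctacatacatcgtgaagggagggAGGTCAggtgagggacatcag
Tdgf1: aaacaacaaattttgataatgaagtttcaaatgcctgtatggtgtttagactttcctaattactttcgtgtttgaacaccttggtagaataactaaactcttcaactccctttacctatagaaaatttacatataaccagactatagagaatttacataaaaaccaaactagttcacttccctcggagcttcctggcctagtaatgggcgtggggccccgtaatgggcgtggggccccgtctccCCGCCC

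The motif TATAAA was searched with CCAAT and with GGGCGG, then the receptor half-site AGGTCA, and last direct repeats of AGGTCA or of AGTTCA with 5 bases between the copies. The half-site also lies within the first repeat. Slfn2 and Jun each held a CCAAT, a motif found in 33.8% of the 32851 promoters of the table over the same 250 bases, and Jun and Tdgf1 each held a GGGCGG on the opposite strand (32.7% of promoters). Lrrc2 held a TATAAA on the opposite strand (12.4%) and an AGGTCA (4607 promoters). Neither repeat was found in these 4 windows, and they occurred in 3 and 7 promoters of the table. By CpG content the promoters differed: 15 CpG lay in that of Jun, 8 in Lrrc2, 7 in Tdgf1 and 2 in Slfn2. Motif shares of all called genes were not compared, because the table held only 76.5% of the genes called higher and 68.2% of those called lower.

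The 6 libraries held 1504737 to 2375019 counts over 33746 transcripts. As a gauge of background, the promoters of 1357 olfactory and vomeronasal receptor genes, sensory genes taken here as silent, had a median of 6.05, 5.38 and 5.76 CPM (counts per 1000000 counts of the library) at 6 h and 8.64, 4.21 and 6.05 CPM at 48 h. The 48 h replicate 1 stood apart with the fewest counts and the highest background, and 6.95% of its counts lay in the lowest 25% of promoters against 3.74% to 5.27% in the other 5 libraries. Among the 960 receptor genes tested, 7 were called higher and 3 lower at 48 h. Promoters of 7 stem cell genes summed to 369 to 538 CPM at 6 h and 244 to 299 CPM at 48 h. Those of 4 neuron genes summed to 106 to 114 CPM at 6 h and 86.6 to 105 CPM at 48 h. Of these neuron genes Stmn2 was called lower (-0.80, adjusted p = 0.00105 by edgeR) and none higher. The 7 fibroblast markers, 6.61 to 14.2 CPM each in either group, summed to 68.5 to 73.4 CPM at 6 h and 50.9 to 98.4 CPM at 48 h, and none of these 7, of 4 primitive endoderm markers or of 4 trophoblast markers was called higher. The endoderm marker Gata4 was called lower. The longer lists of these cell types held calls: 1 of 12 fibroblast genes, 2 of 13 trophoblast genes and 4 of 21 primitive endoderm genes rose, and 0, 3 and 1 fell. These stand beside 4.83% higher and 6.22% lower over all genes.

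Ser5p rose at 1070 genes (4.83%) and fell at 1377 genes (6.22%) of the 22132 tested, taking for each gene its transcript with the most counts. Over all transcripts these were 1634 higher (5.13%) and 1991 lower (6.25%) of 31837, many of which share a window. Most changes were moderate: the median log2 change was 0.68 among genes called higher and -0.78 among those called lower, beside -0.04 over all genes, and 120 of the former and 332 of the latter changed at least 2-fold. The 3 libraries of 48 h all lay above those of 6 h at 1012 of the 1070 and all below at 1168 of the 1377, whereas such separation held at 12.8% (above) and 12.3% (below) of all genes. Without 48 h replicate 1 the transcript counts were 2633 higher and 1638 lower. Omitting 48 h replicate 3 gave 870 and 1112, omitting 6 h replicate 1 gave 747 and 1206, and omitting 6 h replicate 4 gave 962 and 1353. Scaling by the authors' factors gave 548 and 499, DESeq2 gave 860 and 842, and limma with each transcript's own spread called 0 in either direction, with 5296 at an unadjusted p under 0.05. In the authors' deposited table, which was fitted differently, 452 transcripts were higher and 777 lower at the same threshold, of which 451 and 734 had the same call here and 0 the opposite one. Several falls named below were not called there, by the adjusted p of the authors' fit. These include Lhx5 (0.205), Pax7 (0.487), Pax6 (0.448), Cdx2 (0.212), Hoxa3 (0.337), Hoxa6 (0.335), Hoxc12 (0.244), Sox2 (0.306) and Zfp42 (0.404). Other falls were called, such as Pou5f1 (2.07e-06) and Tdgf1 (6.99e-06). Of the rises named below, Hoxa2 (0.156), Meis1 (0.119), Dab2 (0.225) and Twist1 (0.238) were not called there. Slfn2, Tmem92 and Rdh1 had no adjusted p in the authors' fit, and Jun (7.67e-18) and Lefty1 (2.12e-05) were among the rises called.

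**Figure D1:**
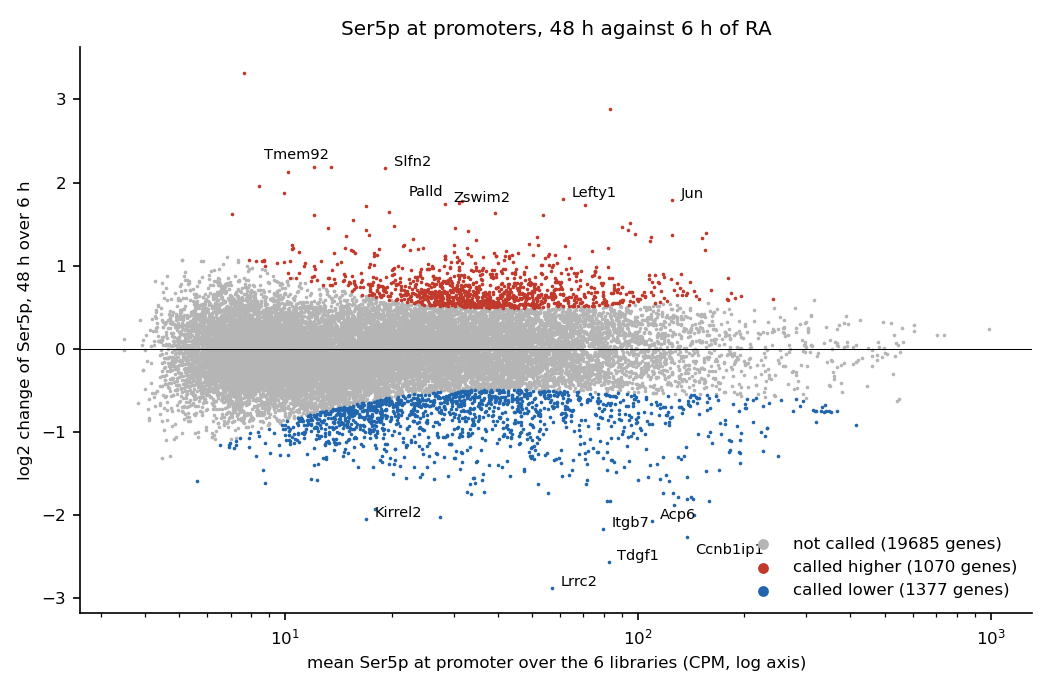
Each point is a gene; the x axis is the mean Ser5p level over the 6 libraries in CPM on a log scale and the y axis the log2 change from 6 h to 48 h. The 1070 genes called higher (red) and 1377 called lower (blue) lie on both sides of the uncalled genes (grey), with Slfn2 at 2.18 and Lrrc2 at -2.87.

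Lefty1, which encodes a secreted inhibitor of Nodal (chromosome 1, 180935022 to 180938401, mm10), was among the leading rises and had 26.1, 34.3 and 21.1 CPM at 6 h and 84.4, 128 and 74.9 CPM at 48 h. Its group means were 27.1 ± 6.64 and 95.8 ± 28.3 CPM (SD, n = 3 each), a 3.49-fold rise (log2 change 1.80 ± 0.19 SE, adjusted p = 2.06e-17 by edgeR). No library of 48 h reached down to those of 6 h, which the rule for naming leading genes required. Jun, a subunit of the AP-1 transcription factor (chromosome 4, 95049036 to 95052222), had 49.4, 54.3 and 61.4 CPM at 6 h. At 48 h it had 193, 133 and 258 CPM, a 3.44-fold rise (1.78 ± 0.21, adjusted p = 3.34e-15). The 48 h libraries of Jun spread widely, with replicate 2 lowest, but all were over 2 times the highest 6 h library.

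Slfn2, a Schlafen family gene (chromosome 11, 83065112 to 83070678), stood at the background level at 6 h with 6.5, 3.9 and 10.1 CPM and reached 30.6, 36.6 and 27.5 CPM at 48 h (4.53-fold, 2.18 ± 0.24, adjusted p = 1.62e-16). Tmem92, a gene for a transmembrane protein, went the same way from 5.6, 4.4 and 3.8 CPM to 28.6, 17.3 and 20.9 CPM (4.55-fold, 2.19 ± 0.30, adjusted p = 5.19e-11). At 6 h both promoters lay near the receptor gene level, and at 48 h all 3 libraries lay well above it. Nfam1, which encodes an immune receptor, and Mfap3l began nearly as low, at 7.80 ± 1.07 and 9.25 ± 1.60 CPM, and rose 3.29-fold and 3.14-fold. Rdh1, a retinol dehydrogenase gene, rose 2.93-fold from 7.77 ± 2.58 CPM. Zswim2 rose 3.34-fold from 12.8 ± 2.86 CPM.

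Palld encodes palladin, which bundles actin, and its promoter had 14.4, 14.2 and 13.4 CPM at 6 h and 41.9, 42.5 and 60.0 CPM at 48 h (3.38-fold, 1.76 ± 0.19, adjusted p = 2.52e-16). P4ha2 encodes a subunit of the prolyl hydroxylase that matures collagen and rose 3.11-fold to 59.7 ± 16.2 CPM. Cycs, the gene of cytochrome c, rose 2.85-fold from 46.1, 45.5 and 53.2 CPM to 156, 126 and 143 CPM (1.51 ± 0.20, adjusted p = 7.04e-12). All of these genes kept their call when any of the 6 libraries was left out.

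**Figure D2:**
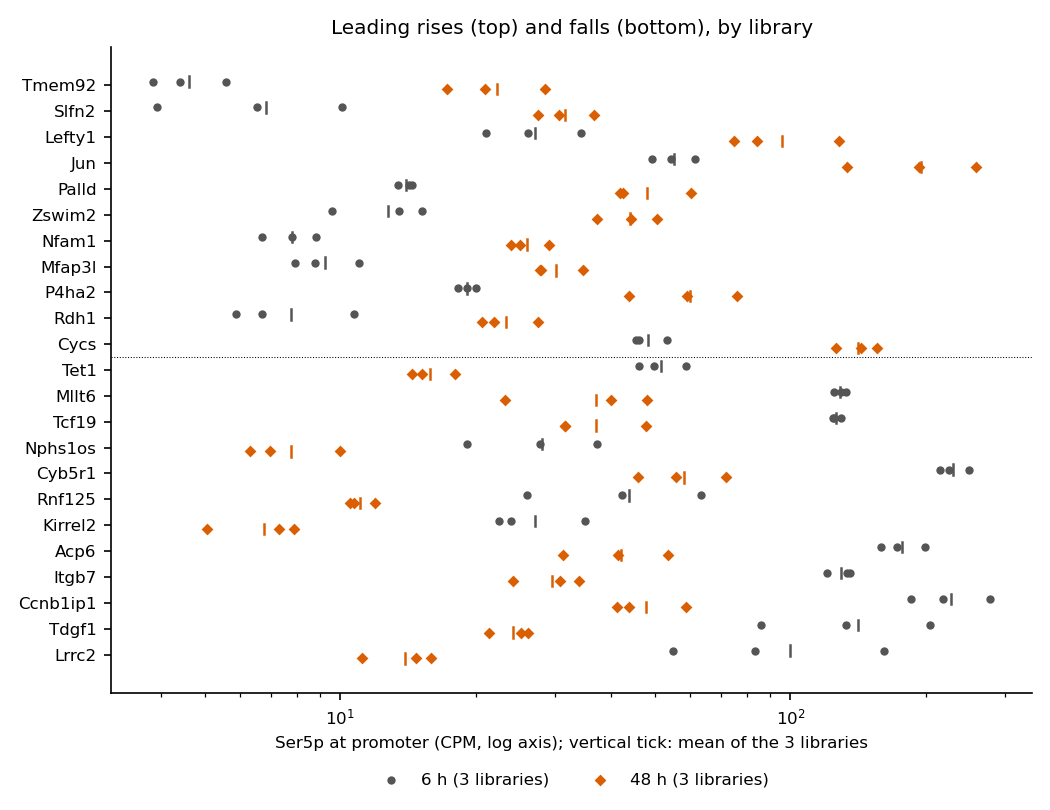
Ser5p in CPM (log axis) in each of the 3 libraries of 6 h (grey circles) and 48 h (orange diamonds) for leading rises above the dotted line and the 12 largest falls below it; vertical ticks are group means. In every gene shown the libraries of the 2 times do not overlap, which the naming rule required.

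The largest falls were at 2 neighbours on chromosome 9 whose start sites lie 5387 bases apart, so that their counted windows do not overlap. Lrrc2, a gene for a leucine-rich repeat protein (110951545 to 110984066), had 162, 54.8 and 83.5 CPM at 6 h and 15.9, 14.7 and 11.2 CPM at 48 h. It fell 7.32-fold (-2.87 ± 0.21, adjusted p = 3.15e-38). Tdgf1, which encodes the Nodal co-receptor Cripto (110939608 to 110946158), had 204, 86.1 and 133 CPM at 6 h and 25.3, 26.1 and 21.4 CPM at 48 h, a 5.90-fold fall (-2.56 ± 0.21, adjusted p = 1.21e-30). In both genes 6 h replicate 1 was highest and replicate 3 lowest, while the 48 h libraries lay close together.

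Ccnb1ip1, a gene of meiotic crossing over (chromosome 14, 50789249 to 50795728), had 218, 278 and 185 CPM at 6 h and 41.2, 58.5 and 43.7 CPM at 48 h (4.80-fold lower, -2.26 ± 0.21, adjusted p = 1.04e-22). Itgb7, which encodes integrin beta 7 (chromosome 15, 102215994 to 102233405), had 135, 120 and 134 CPM at 6 h and 33.9, 30.7 and 24.2 CPM at 48 h (4.50-fold lower, -2.17 ± 0.20, adjusted p = 5.22e-23). Both promoters were among the stronger ones at 6 h and their 48 h libraries lay far below. That the times do not overlap was required by the naming rule. Acp6, a lysophosphatidic acid phosphatase gene, fell 4.21-fold from 177 ± 20.8 to 42.0 ± 11.1 CPM. Cyb5r1, a cytochrome b5 reductase gene, fell 3.98-fold from 230 ± 17.6 to 57.9 ± 13.2 CPM.

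Tet1, which encodes an enzyme that oxidises methylcytosine (chromosome 10, 62804570 to 62887469), had 58.7, 46.0 and 49.9 CPM at 6 h and 17.9, 15.2 and 14.4 CPM at 48 h (3.35-fold lower, -1.74 ± 0.19, adjusted p = 2.52e-16). Rnf125, a ubiquitin ligase gene, fell 4.05-fold to 11.1 ± 0.783 CPM. Kirrel2, a nephrin-like adhesion gene, fell 4.13-fold to 6.76 ± 1.51 CPM, and the noncoding Nphs1os, also on chromosome 7, fell 3.79-fold to 7.75 ± 1.95 CPM. The last 2 ended within the range of the receptor gene promoters. Mllt6, a chromatin protein gene, fell 3.54-fold from 129 ± 3.72 CPM. Tcf19, which lies just beyond Pou5f1 on chromosome 17, fell 3.56-fold from 126 ± 2.88 CPM. All 12 kept their call when any library was left out. ChIP-seq reads no strand, so a window that holds the start of another gene counts both.

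Among the 21 tested genes that make, carry, degrade or bind RA, 3 were called higher and 2 lower, with a median of 0.01. Of all genes tested 4.83% were called higher and 6.22% lower. Rarb, the RA receptor that RA itself induces (chromosome 14, 16430839 to 17082331), had 49.8, 40.6 and 49.4 CPM at 6 h and 159, 112 and 129 CPM at 48 h (2.77-fold, 1.47 ± 0.20, adjusted p = 2.14e-11). Rarg, another RA receptor gene, moved the other way, from 60.5, 45.5 and 60.0 CPM to 31.9, 26.1 and 25.6 CPM (2.05-fold lower, -1.03 ± 0.18, adjusted p = 1.09e-06). The third receptor gene, Rara, was not called (adjusted p = 0.999). Crabp2, which encodes a carrier of RA into the nucleus (0.76 ± 0.18), and Rdh10, the retinol dehydrogenase of RA synthesis (0.64 ± 0.20), rose. Cyp26a1, the enzyme that degrades RA, had 80.1, 73.4 and 71.0 CPM at 6 h and 56.5, 64.4 and 34.4 CPM at 48 h. It fell 1.47-fold (-0.56 ± 0.18, adjusted p = 0.0253), a call that was kept only without 48 h replicate 2 among the 6 omissions. Dhrs3, a retinaldehyde reductase gene, was at 36.4 ± 3.29 and 45.0 ± 15.2 CPM (0.29 ± 0.18, adjusted p = 0.347). Omitting 48 h replicate 1 gave 5 rises and 2 falls, and omitting 48 h replicate 3 or 6 h replicate 1 or 3 gave 2 and 1.

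The Hox genes, which pattern the body axis and lie in clusters in the order of their expression, were counted by position. Their counts stand beside 4.83% higher and 6.22% lower over all genes. Of the 15 anterior Hox genes 5 rose and 2 fell (median 0.08), while of 8 in the middle 0 rose and 2 fell (-0.52) and of 16 posterior genes 0 rose and 6 fell (-0.67). Omitting 48 h replicate 3 left 0 falls in the middle, omitting 6 h replicate 3 gave 3, and omitting 48 h replicate 2 or 6 h replicate 1 or 4 left 1. Hoxb1 (chromosome 11, 96365746 to 96368254) had 22.8, 16.6 and 13.9 CPM at 6 h and 48.5, 41.7 and 27.0 CPM at 48 h (2.11-fold, 1.08 ± 0.19, adjusted p = 1.23e-06). The times did not overlap. Hoxa2 also rose (1.69-fold, adjusted p = 6.67e-04), but 48 h replicate 3, at 32.1 CPM, lay within the 6 h range of 25.9 to 37.2 CPM, and without 48 h replicate 2 its adjusted p was 0.113. Hoxa5 (0.56 ± 0.18) and Hoxb2 (0.58 ± 0.20) rose as well.

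Hoxa3 fell 2.01-fold from 22.7 ± 8.54 to 11.7 ± 3.45 CPM (adjusted p = 5.40e-04), a call lost without 6 h replicate 4 (adjusted p = 0.0581). Its annotated span (chromosome 6, 52169059 to 52213067) reaches past Hoxa6 (52204858 to 52208672), so its counted start need not lie next to Hoxa2. Hoxa6 had 17.7, 19.6 and 20.1 CPM at 6 h and 13.3, 10.5 and 8.4 CPM at 48 h (1.85-fold lower, -0.89 ± 0.25, adjusted p = 0.00714, or 0.0990 without 48 h replicate 3). Hoxc12, the largest fall of the posterior genes, had 25.6, 18.6 and 25.9 CPM at 6 h and 12.1 ± 1.66 CPM at 48 h (1.98-fold lower, -0.99 ± 0.23, adjusted p = 5.28e-04). At 48 h these 3 promoters were at 10.7 to 12.1 CPM, beside receptor gene medians of 4.21 to 8.64 CPM. The count of posterior genes that fell was 4 without 48 h replicate 1 or 2 and 2 without 48 h replicate 3 or 6 h replicate 4. It was 6 and 8 when 6 h replicates 1 and 3 were omitted. The count of anterior genes that rose was 2 without 48 h replicate 2 and 3 without 6 h replicate 1 or 3, and the anterior median was negative without 48 h replicate 1 (-0.05) or 6 h replicate 3 (-0.04). Among 9 genes of the Hox cofactor families Meis, Pbx and Pknox, Meis1 rose 1.61-fold, from 22.5 ± 2.25 to 36.6 ± 5.27 CPM (adjusted p = 0.00407, or 0.103 without 48 h replicate 2).

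Many homeobox and patterning genes are held silent by Polycomb in stem cells. Of 30 such genes 9 fell and 1 rose (median -0.47). Of 28 neural progenitor and neuron genes 8 fell and 0 rose (-0.50), and of 20 genes of mesoderm and primitive streak 8 fell and 1 rose (-0.53), beside 6.22% lower and 4.83% higher over all genes. Lhx5, a LIM homeobox gene of the forebrain, had 23.3, 25.9 and 29.3 CPM at 6 h and 14.6, 8.8 and 12.1 CPM at 48 h (2.31-fold lower, -1.21 ± 0.22, adjusted p = 5.22e-06). Pax7, a paired-box gene of the dorsal neural tube, had 24.2, 17.1 and 50.8 CPM at 6 h and 16.6, 12.6 and 14.4 CPM at 48 h (2.18-fold lower, adjusted p = 2.85e-06). Its fall leaned on 1 library, since without 6 h replicate 4 it was -0.57 (adjusted p = 0.146). Pax6, a paired-box gene of the eye and forebrain, fell 1.61-fold from 29.0 ± 4.04 to 18.7 ± 3.40 CPM (adjusted p = 0.00812, or up to 0.102 without 48 h replicate 2 or 6 h replicate 4).

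Among the mesoderm and axial genes, Cdx1, a caudal-type homeobox gene, fell 2.07-fold from 38.6 ± 13.2 to 18.8 ± 4.62 CPM (adjusted p = 2.31e-06). Cdx2 fell 2.11-fold from 23.5 ± 9.73 to 11.4 ± 0.534 CPM (adjusted p = 1.43e-04). Both kept their call when any library was left out. Dll4, a Notch ligand gene, fell 2.13-fold from 17.7, 15.7 and 22.1 CPM to 8.6, 8.0 and 9.8 CPM (adjusted p = 0.00111). Twist1, a mesenchymal regulator, was the member that rose (1.72-fold, from 12.7 ± 2.54 to 22.1 ± 2.43 CPM, adjusted p = 0.00955), and its adjusted p reached 0.0802 without 48 h replicate 2 or 3 or 6 h replicate 3. Without 6 h replicate 4, whose levels at Pax7, Otx2 and Cdx2 were the highest of the 6 libraries, the falls were 2 of 30, 3 of 28 and 2 of 20. Omitting 48 h replicate 1 left 9, 8 and 8 falls, omitting replicate 2 of that time 6, 4 and 5, and omitting its replicate 3 left 4, 7 and 5. Sox1, an early neural gene, was at 16.7 ± 7.36 and 18.6 ± 4.05 CPM (adjusted p = 0.832), and no neural gene of the list was called higher.

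**Figure D3:**
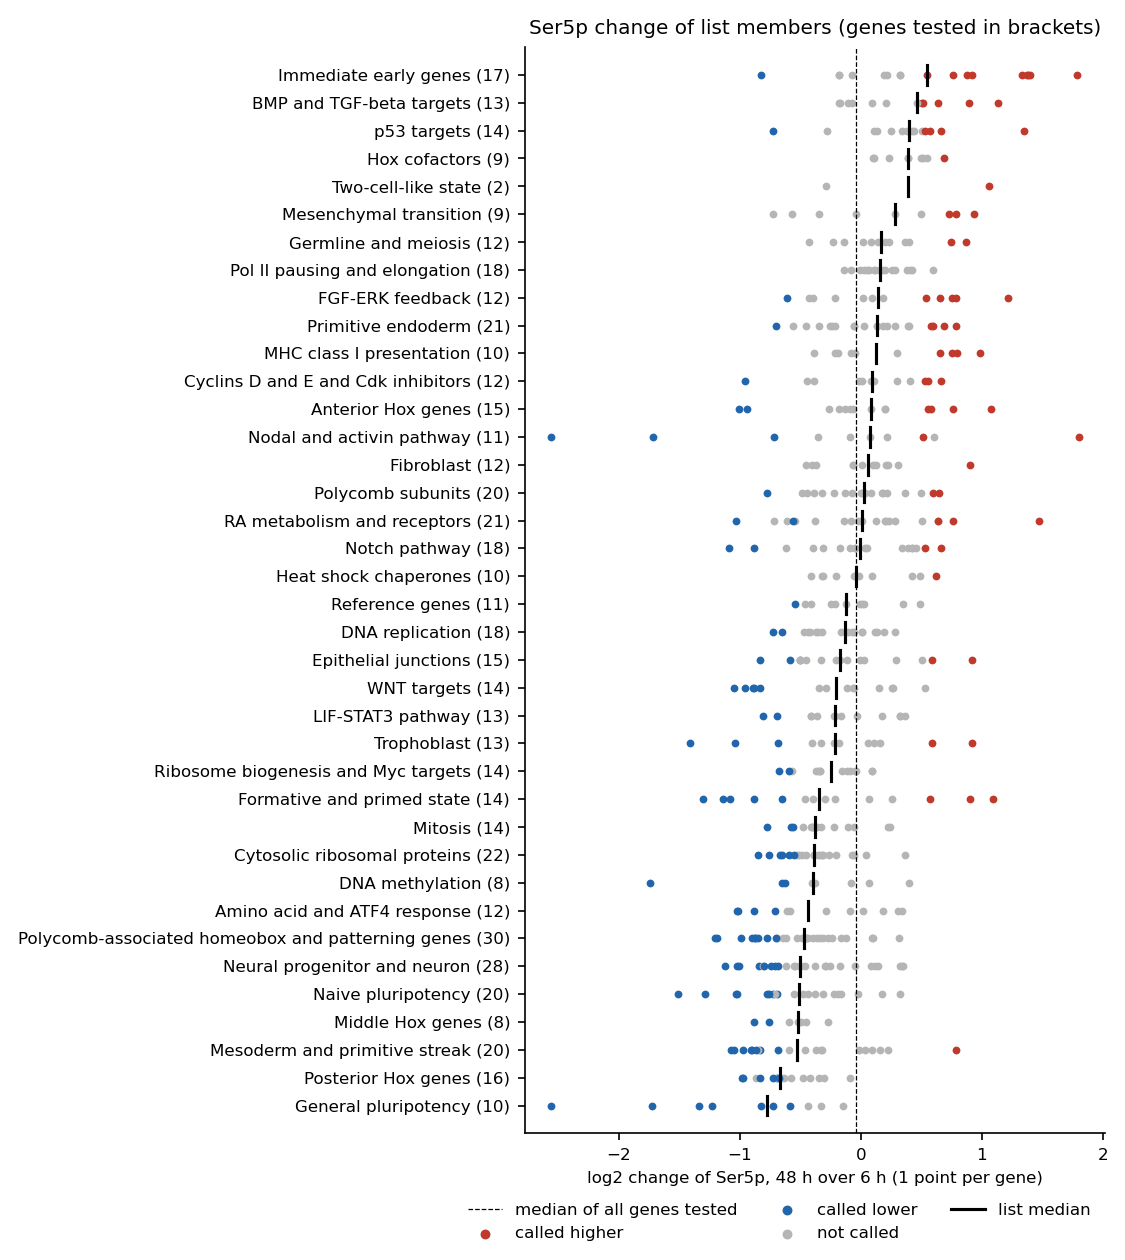
Log2 change of Ser5p from 6 h to 48 h (x axis) for members of the 38 gene lists (y axis, number of genes tested in brackets); points, which leave out genes not reported here, are coloured by call, black bars are list medians and the dashed line is the median of all genes, -0.04. General pluripotency genes have the lowest median (-0.78) and immediate early genes the highest (0.55).

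Pluripotency genes keep stem cells undifferentiated. Of 10 general pluripotency genes 7 fell and of 20 genes of the naive state 8 fell, and 0 of either rose (medians -0.78 and -0.51). The shares over all genes were 6.22% lower and 4.83% higher. Pou5f1, the gene of OCT4 (chromosome 17, 35506032 to 35510777), had 54.0, 49.9 and 63.3 CPM at 6 h and 19.9, 18.5 and 13.5 CPM at 48 h (3.30-fold lower, -1.72 ± 0.19, adjusted p = 2.52e-16). L1td1 (-1.34 ± 0.19) and Utf1 (-1.23 ± 0.18), both genes of undifferentiated stem cells, fell by over 2-fold. Nr0b1, which encodes the nuclear receptor DAX1, had 29.5 ± 4.86 CPM at 6 h and 14.6, 10.5 and 7.4 CPM at 48 h, the largest fall of the naive genes (2.84-fold, -1.51 ± 0.22, adjusted p = 1.86e-09). Sox2 had 138, 69.0 and 90.2 CPM at 6 h and 53.2, 45.9 and 71.7 CPM at 48 h. It fell 1.77-fold (adjusted p = 4.30e-04), but the times overlapped and without 6 h replicate 1 its adjusted p was 0.160. Zfp42, the gene of REX1, fell 1.62-fold (adjusted p = 0.00340, or up to 0.138 without 48 h replicate 2 or 6 h replicate 1).

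Nanog, another core factor, was not called, with 62.4, 29.9 and 64.3 CPM at 6 h and 55.2, 30.7 and 60.5 CPM at 48 h (-0.15 ± 0.18, adjusted p = 0.703). Klf4, a naive state factor, stood at 0.33 ± 0.20 (adjusted p = 0.338). Without 6 h replicate 1 the falls were 4 of 10 and 6 of 20. Of 14 genes of the formative and primed states, 5 fell and 3 rose, beside 6.22% lower and 4.83% higher over all genes. Otx2, a factor of the formative state, fell 2.47-fold from 28.0 ± 11.1 to 11.5 ± 1.28 CPM (-1.31 ± 0.22, adjusted p = 2.88e-07), and Sox4, a SoxC family gene, rose 2.14-fold from 34.2 ± 3.93 to 75.0 ± 12.6 CPM (adjusted p = 2.44e-07). Of 8 genes of DNA methylation and its removal 3 fell, Tet1 with the DNA methyltransferase genes Dnmt3a (-0.65 ± 0.20) and Dnmt3l (-0.63 ± 0.19), of which only 1 was called without 48 h replicate 1 or 6 h replicate 1.

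Immediate early genes, which code for factors made within minutes of a stimulus, were counted next: 9 of 17 rose and 1 fell, with a median of 0.55. The shares over all genes were 4.83% higher and 6.22% lower. Besides Jun, Egr1 had 94.1, 85.6 and 71.0 CPM at 6 h and 284, 146 and 255 CPM at 48 h (2.63-fold, 1.39 ± 0.21, adjusted p = 2.21e-09). Fos, the partner of JUN in AP-1, had 96.8, 69.0 and 87.8 CPM at 6 h and 272, 155 and 232 CPM at 48 h (2.51-fold, 1.33 ± 0.20, adjusted p = 1.26e-08). In these 3 genes 48 h replicate 2 was the lowest of its group, yet above every 6 h library. Fosb (1.37 ± 0.20), the matricellular gene Cyr61 (1.38 ± 0.20), the stress factor Atf3 (0.92 ± 0.19) and Srf, which drives many of these genes (0.87 ± 0.19), also rose. Jund, a Jun family gene, was the member that fell, 1.77-fold from 51.4 ± 4.80 CPM to 35.9, 29.9 and 24.2 CPM (adjusted p = 1.89e-04). Leaving out any library left 7 to 9 rises.

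Signalling genes moved with differing signs, and their counts stand beside 4.83% higher and 6.22% lower over all genes. In the Nodal and activin pathway 3 of 11 rose and 3 fell: beside Lefty1 and Tdgf1, Inhbb, a subunit gene of activin, fell 3.29-fold (-1.72 ± 0.19, adjusted p = 8.70e-16), Foxh1, the partner of the Smads, fell (-0.72 ± 0.18), and Smad7, an inhibitory Smad, rose (0.51). Nodal itself was at -0.09 ± 0.18 (adjusted p = 0.838). Of 13 BMP and TGF-beta targets 5 rose and 0 fell (median 0.46), led by the inhibitor of differentiation gene Id2, from 47.0, 29.9 and 30.7 CPM to 78.4, 77.9 and 84.2 CPM (2.19-fold, 1.13 ± 0.18, adjusted p = 1.08e-07). Bmp4, a ligand gene, fell 2.67-fold from 36.3, 31.8 and 32.6 CPM to 12.6, 13.5 and 12.1 CPM (-1.42 ± 0.21, adjusted p = 1.15e-09). The targets called higher were 2 without 48 h replicate 3 or 6 h replicate 3 and 3 without 6 h replicate 1.

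Feedback genes of FGF and ERK signalling rose at 5 of 12, led by the phosphatase gene Dusp5 (2.32-fold, from 48.5 ± 8.39 to 116 ± 12.8 CPM, adjusted p = 3.57e-08). The receptor gene Fgfr3 fell (-0.61 ± 0.22, adjusted p = 0.0462), a call kept only without 6 h replicate 3. The rises were 2 without 48 h replicate 3 and 3 without 6 h replicate 1 or 3. Of 14 WNT targets 5 fell and 0 rose, among them the cyclin gene Ccnd1 (1.94-fold lower, from 50.5 ± 4.63 to 26.3 ± 4.66 CPM, adjusted p = 8.19e-06), and 4 or 5 fell without any of the libraries. Of 13 genes of the LIF pathway 2 fell, the receptor gene Lifr (-0.69) and Stat3, from 59.4 ± 20.1 to 33.8 ± 10.8 CPM (1.75-fold, adjusted p = 2.60e-04). Neither was called without 6 h replicate 1, where Stat3 had an adjusted p of 0.134. The FGF, WNT and LIF counts stand beside 4.83% higher and 6.22% lower over all genes.

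Of 14 p53 targets 4 rose and 1 fell, beside 4.83% higher and 6.22% lower over all genes. Btg2, an antiproliferative gene, rose from 59.6, 61.7 and 59.5 CPM to 161, 125 and 187 CPM (2.54-fold, 1.35 ± 0.20, adjusted p = 2.17e-09). The p53 targets called higher were 9 without 48 h replicate 1, 2 without 48 h replicate 2 or 3, and 1 without 6 h replicate 1. Of 12 genes of amino acid supply and the ATF4 response 4 fell and 0 rose, such as the pseudokinase gene Trib3 (2.03-fold lower, from 55.5 ± 7.86 to 28.1 ± 6.10 CPM, adjusted p = 1.42e-06). Of 10 genes of MHC class I presentation 4 rose and 0 fell, led by H2-K1 (1.98-fold, from 20.6 ± 6.77 to 41.7 ± 1.89 CPM, adjusted p = 8.50e-06) and joined by B2m (0.79 ± 0.18), and 2 rose without 6 h replicate 4.

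Of 22 cytosolic ribosomal protein genes 6 fell and 0 rose (median -0.39), with Rpl13 going from 225 ± 26.1 to 127 ± 16.7 CPM (1.80-fold lower, adjusted p = 9.79e-04). Their count was 10 with scaling by the library total, 0 with the authors' factors and 1 with all 18 libraries in the fit, and among the omissions it was 3 without 48 h replicate 1, 2 without 6 h replicate 4 and 1 without 48 h replicate 3 or 6 h replicate 1 or 3. Among 14 mitosis genes 3 fell and among 18 DNA replication genes 2 fell, with 0 rises. The shares over all genes were 6.22% lower and 4.83% higher. Omitting 6 h replicate 1 or 4 left 1 mitosis gene and omitting any other library 2, while the replication genes were 0 without 48 h replicate 3, 1 without 48 h replicate 1 or 6 h replicate 1 or 3, and 3 without 48 h replicate 2 or 6 h replicate 4. With the authors' factors both counts were 0. Aurkb, a mitotic kinase gene, fell 1.71-fold (adjusted p = 4.91e-04). Of 20 Polycomb subunit genes 3 rose and 1 fell: the chromobox gene Cbx2 rose (0.65 ± 0.19), and Cbx7, another of that family, fell (1.72-fold, to 56.1 ± 7.94 CPM, adjusted p = 9.78e-04). Without 48 h replicate 3 none of the 3 rises was called, and 1 was called without 48 h replicate 2 or 6 h replicate 3 or 4.

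In the primitive endoderm list 4 of 21 rose and 1 fell, beside 4.83% higher and 6.22% lower over all genes. Dab2, an endocytic adaptor gene, rose 1.72-fold from 12.3 ± 0.394 to 22.1 ± 5.01 CPM (adjusted p = 0.0114, or 0.0644 without 6 h replicate 1), whereas the lineage factor Gata4 fell 1.62-fold (adjusted p = 0.0137) and Gata6 stood at -0.35 ± 0.23 (adjusted p = 0.373). The list's rises were 1 without 48 h replicate 3 or 6 h replicate 1 or 3, and Gata4 lost its call without 48 h replicate 2 or 3 or 6 h replicate 4 (adjusted p up to 0.127). Of 9 genes of the mesenchymal transition 3 rose and 0 fell, with Vim, the gene of vimentin, going 1.91-fold from 25.2 ± 5.19 to 48.8 ± 3.76 CPM (adjusted p = 1.57e-05). Among 15 epithelial junction genes the keratin genes Krt8 (0.59) and Krt18 (0.92, adjusted p = 5.29e-05) rose, of which Krt18 alone was called without 48 h replicate 2 or 3 or 6 h replicate 1 or 4. Cdh1 (-0.58), Cldn4 (-0.50) and Epcam (-0.84) fell, of which 1 was called without 48 h replicate 1 or 2 or any library of 6 h. Of 18 genes of polymerase pausing and elongation factors 0 passed in either direction with edgeR (median 0.15), although 2 rose without 48 h replicate 1. Actb, the actin gene commonly taken as a reference, was at 370 ± 32.4 and 483 ± 36.9 CPM (0.35 ± 0.23, adjusted p = 0.385). It was not called, but its 48 h libraries all lay above those of 6 h.

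Total polymerase, pulled down through its N-terminal domain (NTD), was counted in the same windows in 3 libraries of each time. Serine 2 phosphorylated polymerase (Ser2p) was counted over gene bodies, also in 3 libraries of each time. These libraries carry the same replicate numbers as those of Ser5p, so differences between replicates may be shared by the 3 readouts. NTD was called higher at 7.76% and lower at 8.56% of the genes tested, and Ser2p at 2.66% and 3.68%. Of 1067 genes where Ser5p rose and NTD was tested, NTD rose at 706 and fell at 0, which is 66.2% of these genes and 49.2% of the 1436 where NTD rose. Of 1345 genes where Ser5p fell, NTD fell at 862 and rose at 0, which is 64.1% of them and 54.4% of the 1584 where NTD fell. Ser2p over the body rose at 206 of 1043 genes with a Ser5p rise and fell at 374 of 1307 with a Ser5p fall, with 1 and 2 calls in the opposite direction. The Ser2p calls turned on single libraries: over all transcripts 867 were higher and 1200 lower, but omitting 48 h replicate 2 gave 2880 and 3528 and omitting replicate 3 of that time 258 and 269. Omitting a 6 h library gave 212 and 289 for replicate 1, 301 and 472 for replicate 3, and 365 and 552 for replicate 4.

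At several leading genes all 3 readouts were called in one direction. At Slfn2 the log2 changes of NTD and Ser2p were 2.87 and 1.89. At Jun the NTD and Ser2p log2 changes were 1.82 and 2.37, at Cycs 1.17 and 1.95, and at Pou5f1 -1.74 and -0.83. Tdgf1 (-2.89 and -1.40), Lrrc2 (-3.09 and -0.90) and Tet1 (-1.55 and -1.38) lost both. At Cyp26a1 neither NTD (-0.20, adjusted p = 0.507) nor Ser2p (adjusted p = 0.906) was called beside its Ser5p fall. At Hoxa3 NTD was at 0.06 (adjusted p = 0.952 by edgeR) and Ser2p rose by 0.62 (adjusted p = 0.0483) while Ser5p fell. At Jund NTD was at -0.17 (adjusted p = 0.626) and Ser2p rose by 1.18 (adjusted p = 0.00289) while Ser5p fell. The difference between its Ser5p and NTD changes was not called (adjusted p = 0.951 by edgeR). Its Ser5p call was lost with the authors' scale factors. At Actb, where Ser5p was not called, NTD (0.43, adjusted p = 0.0312) and Ser2p (0.69, adjusted p = 0.00254) were called higher by edgeR.

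**Figure D4:**
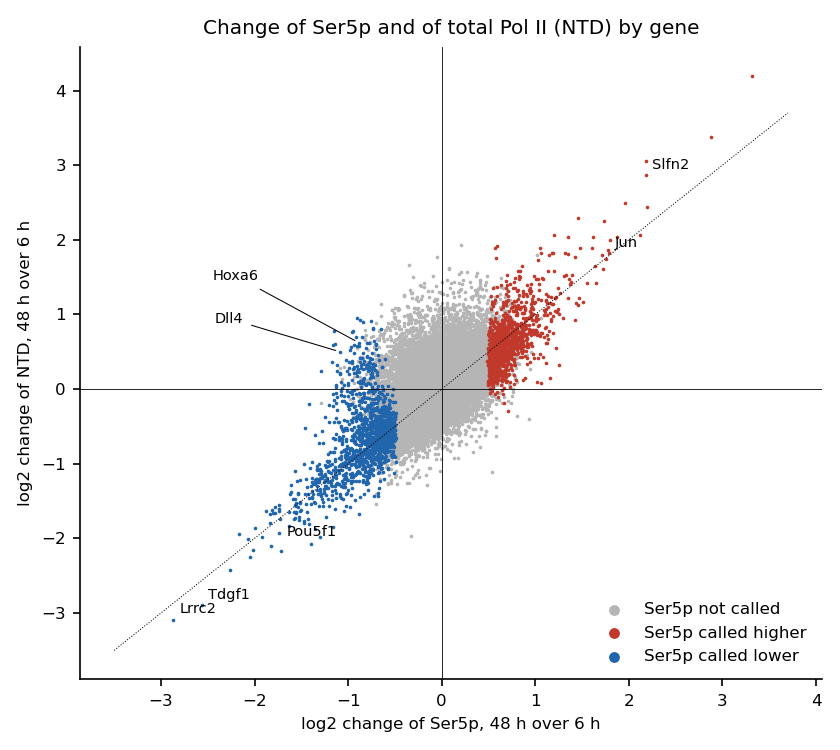
Log2 change of Ser5p (x axis) against that of NTD (y axis) from 6 h to 48 h, 1 point per gene, coloured by the Ser5p call; the dotted line marks equal change. Genes called for Ser5p mostly follow the line, apart from some with Ser5p falls and NTD near or above 0, such as Hoxa6 (-0.89 and 0.62) and Dll4 (-1.09 and 0.50). At Hoxa6 and Dll4 the NTD change was not called (adjusted p = 0.269 and 0.369 by edgeR). Nor was its difference from the Ser5p change (0.462 and 0.405). Their NTD levels were low, 5.78 and 6.97 CPM at 6 h.

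In several developmental lists the medians of Ser5p and NTD differed in sign. For the homeobox and patterning list the medians were -0.47 for Ser5p and 0.45 for NTD, for mesoderm genes -0.53 and 0.10, for posterior Hox genes -0.67 and 0.08, and for middle Hox genes -0.52 and 0.50. NTD rose at 4 and fell at 1 of 25 tested homeobox and patterning genes, and rose at 1 and fell at 0 of 15 posterior Hox genes, beside 7.76% higher and 8.56% lower over all genes. These NTD levels were low, with list medians of 7.04 and 8.28 CPM (homeobox and patterning) and 7.39 and 8.25 CPM (posterior Hox) at 6 h and 48 h. NTD at receptor gene promoters was 3.49, 2.88 and 2.82 CPM at 6 h and 5.02, 2.19 and 4.59 CPM at 48 h, so background moved up in 2 of the 3 NTD libraries of 48 h. Its part in these medians was not tested. Tested directly as an interaction of antibody and time, a difference between the Ser5p and NTD changes was called at 0% of genes. That is 0 of 32140 transcripts with edgeR, of which 1653 had an unadjusted p under 0.05. The fit did not pair the antibodies by replicate. At Tdgf1 at 6 h, for example, Ser5p was at 204, 86.1 and 133 CPM and NTD at 187, 77.3 and 125 CPM. With a replicate block 1 transcript was called higher and 21 lower, so the absence of calls does not show equal changes. The interaction was negative at 28 of the 30 homeobox and patterning genes (median -0.62) and 15 of 16 posterior Hox genes (-0.58), beside a median of 0.06 over all genes. It was also negative at 14 of 15 anterior Hox genes (-0.49) and 16 of 21 primitive endoderm genes (-0.47), lists whose Ser5p medians were 0.08 and 0.13. Of 20 naive pluripotency genes 4 had a negative interaction (median 0.19). The share of negative values over all genes was not counted.

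Ser5p libraries that the comparison did not use gave the same directions for most of the called genes. Between 4 h (3 libraries) and 72 h (2 libraries) the mean log2 level was higher at 1038 of the 1070 genes called higher (97.0%) and lower at 1333 of the 1377 called lower (96.8%), against 41.1% higher and 58.9% lower over all genes. Between 2 h and 24 h these shares were 87.7% and 87.9%, against 36.1% and 63.9%. In the 24 h libraries the median level of the genes called higher was 32.4 and 37.9 CPM, between the 26.9 to 27.8 CPM of 6 h and the 43.4 to 47.5 CPM of 48 h. At 72 h it was 42.0 and 43.0 CPM.

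Single genes took differing courses around this pair of times. Lefty1 was as high at 24 h (100.4 CPM) as at 48 h (95.8 CPM) and at 23.5 CPM at 72 h, near the untreated 21.4 CPM. Jun went on to 247 CPM at 72 h. Cyp26a1, at 34.5 CPM untreated, peaked at 24 h with 97.2 CPM, so its fall from 6 h to 48 h spans a rise in between. Pou5f1 passed through 32.1 CPM at 24 h and stood at 27.1 CPM at 72 h, above its 48 h mean of 17.3 CPM. At 72 h Tdgf1 (25.1 CPM) and Tet1 (14.6 CPM) were near their 48 h levels. Pax7 had a lower mean at 6 h (30.7 ± 17.8 CPM) than untreated (73.7 CPM), but the times overlapped. Its untreated libraries were at 39.8 and 107.6 CPM, and 6 h replicate 4 was at 50.8 CPM. The levels by time are means of 2 or 3 libraries with no test, and the 72 h libraries differ widely at Rarb (199.7 and 47.6 CPM) and Hoxb1 (41.8 and 13.1 CPM).

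**Figure D5:**
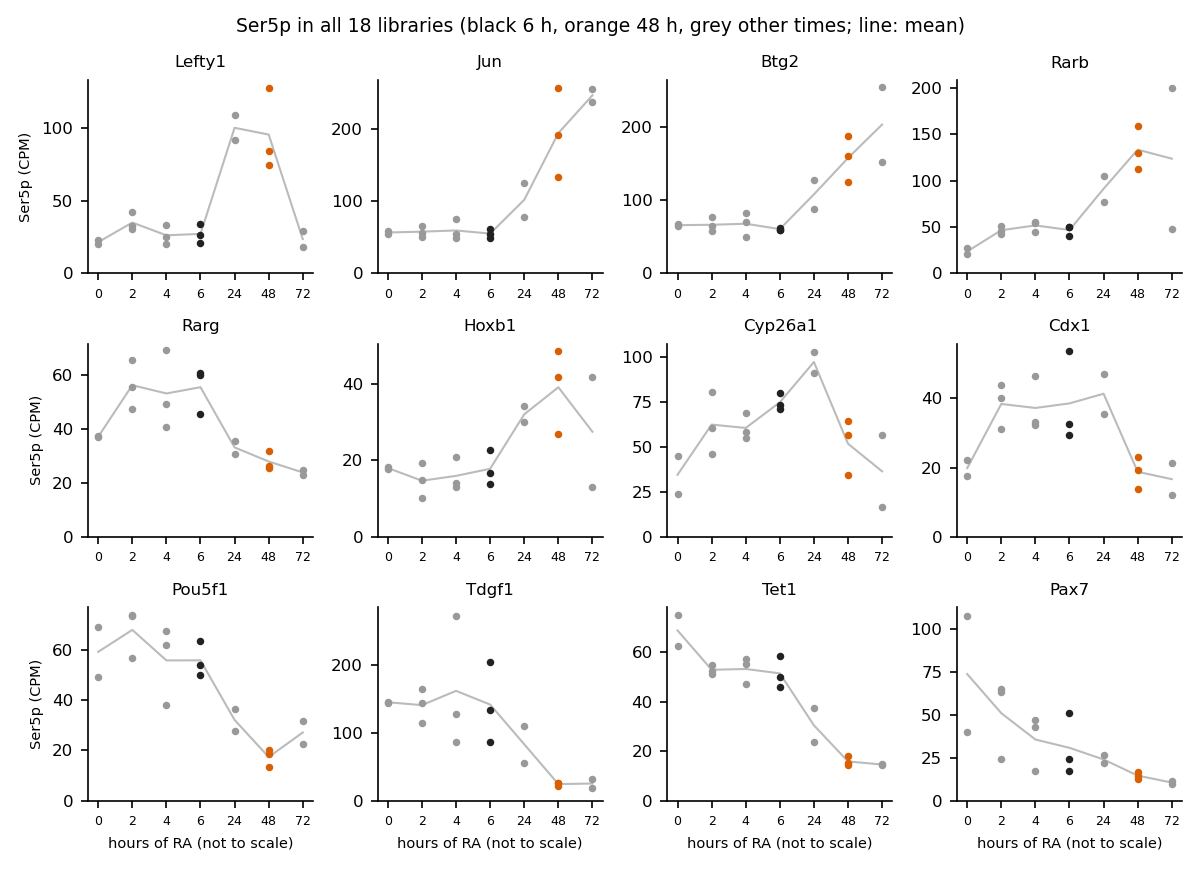
Ser5p in CPM (y axis) at 12 promoters in all 18 libraries against hours of RA (x axis, not to scale); points are libraries (black 6 h, orange 48 h, grey other times) and lines join means. Lefty1 is highest at 24 h and 48 h, Cyp26a1 peaks at 24 h, and Pou5f1 and Tet1 are lower from 24 h on. Tdgf1 is lower from 48 h on, with its 24 h libraries at 110 and 55.6 CPM beside 86.1 to 204 CPM at 6 h.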

How the data were processed

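The authors deposited raw counts of reads within 1 kb of each RefSeq start site (Ser5p, NTD) or over gene bodies (Ser2p). Per the submitters' processing notes, mm10, dm6, Bowtie2, SAMtools, MACS2 and DESeq2 were used, while versions and the counting program were not given in those sources. The deposited normalized signal is each raw count times a constant per library and served as an alternative scaling. The authors' log2 fold changes and adjusted p-values were only set beside the results.

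The test was that of edgeR 4.0.16 with quasi-likelihood, TMM scaling and filterByExpr, run in R 4.3.3 on the 6 libraries, with Benjamini-Hochberg adjustment over all transcripts tested and a threshold of 0.05. A ± after CPM is an SD and after a log2 change an SE, derived from the F statistic. Because the test pools spread over transcripts, SEs were alike where SDs were not. At 6 h the SD was 3.72 CPM at Mllt6 and 59.6 CPM at Tdgf1, and their SEs were 0.199 and 0.209. The 90 transcripts without a symbol (0.0805% of counts) were kept in library sizes, and 141 per-sample columns were not used. Figures used matplotlib 3.10.9.

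The members and the 38 gene lists were chosen with earlier results of these data known. Named genes are the 12 largest called rises and falls (mean of at least 10 CPM, times not overlapping, no predicted gene), the extremes of each list and 16 fixed genes. Some of these are not reported here, though counts and medians include them. Other list members and the receptor gene background were chosen after their values were seen. The test script was tested on simulated data. Alternatives were other scalings, DESeq2 1.42.0, no filter, all 18 libraries, a replicate block, 1 transcript per symbol, leaving out each library, and limma 3.58.1.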

Additional observations from a re-analysis of the deposited data

How the results depend on the processing

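The counts of calls, the list counts and the genes named by the rule were recomputed under the alternatives, and other single genes were not. With the authors' scale factors 548 transcripts were higher and 499 lower, with DESeq2 860 and 842, and with 1 transcript per symbol (fewer tested) 1030 and 1310. Genes that lost their call with the authors' factors include Jund, Ccnd1, Rpl13, Aurkb, Cbx7, Sox2, Meis1, Pax6 and Hoxa6. With DESeq2 they include Meis1, Pax6, Hoxa6 and Hoxa3. With all 18 libraries in the fit 1052 were lower. Leaving out 1 library gave 747 to 2633 higher and 1112 to 1702 lower. With limma and each transcript's own spread, added after seeing the data, 0 were called in either direction, and 5296 had an unadjusted p under 0.05. Higher calls were 45.1% of all calls and 61.6% without 48 h replicate 1. For NTD (2070 higher and 2288 lower), leaving out 1 library gave 1229 to 1690 higher and 1588 to 2759 lower. For Ser2p (867 higher and 1200 lower) the range was 212 to 2880 higher and 269 to 3528 lower, and with a replicate block 3576 and 4282. The interaction gave 3 lower calls with no filter, and 1 higher and 21 lower with the replicate block. For Ser5p the replicate block gave 1304 and 2272. With it 16 of 22 ribosomal protein genes, 7 of 18 DNA replication genes and 5 of 14 mitosis genes fell, against 6, 2 and 3. Between 6 h and 48 h the deviations of same-numbered libraries from their group means correlated at 0.077 (replicate 1) and 0.026 (replicate 3). At some genes earlier libraries of the same number went together. Tdgf1 had 271 and 85.8 CPM in replicates 1 and 3 at 4 h, and 204 and 86.1 CPM at 6 h. The groups do not hold the same replicate numbers, and whether a number marks a batch was not tested. The cause of the differences between these settings was not tested. Depth limits weak promoters, whose counts lie near the receptor gene level, and 3 libraries a group leave small changes uncalled.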
